A study of Mus musculus with 8 samples.

Results

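The myogenic lineage transcription factors examined here are 9 genes, Myod1, Myf5, Myf6, Myog, Pax7, Pax3, Mef2c, Eya1 and Tbx15, taken by their symbols from a table of read counts for 54532 genes, where each had 1 row. The RNA came from interscapular brown fat of 8 male mice aged 7 months, fed normal chow and kept at 4 °C for 24 h. In 4 mice a floxed Pparg gene was combined with Myl1-Cre, a recombinase driven by the gene of a fast-muscle myosin light chain, and the 4 control mice carried floxed Pparg without Cre. The series asks what Myl1-positive adipose progenitor cells contribute to adult brown fat, and Cre acts only in cells that have used the Myl1 promoter, so other cells of the depot keep Pparg. Pparg RNA was higher where Cre was present, at 284 ± 24.9 CPM (counts normalised to the library size after TMM scaling) against 197 ± 7.36 CPM in the control (SD, n = 4 each), with an edgeR adjusted p of 0.0328 that became 0.0505 to 0.119 when any 1 library was left out. As this goes against the label, the Cre group is called labelled knockout. The count covers exons outside the floxed part too, so it checks the label only in part.

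Muscle identity is set in steps. PAX3 and PAX7 mark the precursors, PAX7 also the satellite cells that repair adult muscle. The 4 basic helix-loop-helix factors MYF5, MYOD1, myogenin (Myog) and MRF4 (Myf6) then bind E-boxes, short DNA motifs of muscle genes, together with E proteins. MEF2C works beside them, and EYA1 is a transcriptional co-activator upstream of Myog. TBX15 is a T-box factor known in mice from fast muscle fibres and from brown fat precursors. Brown fat is linked to this family because, in mouse lineage tracing, much of the interscapular depot descends from precursors that once expressed Myf5, as skeletal muscle does.

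E-boxes and other motifs of muscle genes were looked for in promoters by sequence alone. Promoter windows of 300 bases, from 250 before to 50 after a transcript start, were at hand from RefSeq (GRCm38.p6) for 4 of the 9 genes. Those of Myog (chr1:134289754-134290053, plus strand) and Myf5 (chr10:107486085-107486384, minus strand) are shown, the first because Myog is the late factor of the cascade and was measured here, the second because Myf5 was near the detection limit. Capitals mark E-boxes (CANNTG) and the MEF3 motif (TCAGGTTTC), searched on both strands.
Myog: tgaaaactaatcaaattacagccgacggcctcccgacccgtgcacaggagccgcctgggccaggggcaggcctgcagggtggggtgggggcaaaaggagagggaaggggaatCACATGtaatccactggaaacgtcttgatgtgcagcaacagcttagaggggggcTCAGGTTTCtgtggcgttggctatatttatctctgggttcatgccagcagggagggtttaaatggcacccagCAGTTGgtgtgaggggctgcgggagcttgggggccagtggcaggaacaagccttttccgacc
Myf5: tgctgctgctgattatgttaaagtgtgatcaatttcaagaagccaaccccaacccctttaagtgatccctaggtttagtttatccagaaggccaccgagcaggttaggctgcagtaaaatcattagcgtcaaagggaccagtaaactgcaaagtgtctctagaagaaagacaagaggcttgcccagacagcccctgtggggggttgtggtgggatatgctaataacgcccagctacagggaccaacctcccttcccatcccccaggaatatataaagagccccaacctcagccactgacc
The Myog window held E-boxes beginning 138 and 12 bases before the start and a MEF3 motif beginning 84 bases before it, with no overlap between them. E-boxes were found in 72.3% and MEF3 in 0.429% of 32851 windows of this length. In the Myf5 window neither motif was found, and the MEF2 consensus, searched without mismatches and present in 3.19% of all windows, was found in neither. That consensus was YTAWWWWTAR, where Y is C or T, W is A or T and R is A or G. The stretch ctatatttat of the Myog window departs from it only at the last base, so it was not counted. The search thus does not show that this promoter lacks a MEF2 site. These matches are letters in a window and not measured binding.

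The libraries held 12226608 to 19268945 counts, and 0 reads of a gene in a library leave room for at most 0.150 to 0.250 CPM (3 counts, counting error only). Brown fat markers were abundant, with 10 of them summing to 12308 to 16249 CPM in labelled knockout libraries and 15540 to 19298 CPM in control libraries. Most of this was Ucp1, at 9303 ± 1473 CPM in labelled knockout and 11441 ± 1272 CPM in the control. The log2 fold change was -0.30 for Ucp1 and -0.19 for Cidea, the next most abundant. Their edgeR adjusted p were 0.344 and 0.418, and the groups overlapped for both. By gene the 10 markers lay mostly on the other side of 0 from the factors described below, with 8 below 0 and a median of -0.34 (log2 fold change). At an unadjusted p under 0.05, 4 were lower, as were 7.12% of all genes tested. In edgeR and limma-voom 0 of them passed and in DESeq2 2 did, both lower and without overlap. DESeq2 called 163 of 13754 genes lower, and 550 of 13756 tested genes were lower without overlap. The lipid droplet coat gene Plin1 was at 759 ± 84.6 CPM in labelled knockout and 1073 ± 124 CPM in the control (DESeq2 adjusted p = 0.00758), and the fatty acid elongase gene Elovl3 at 680 ± 139 CPM in labelled knockout and 1311 ± 463 CPM in the control (0.00664). The part of these differences in the factors' values was not tested. Skeletal muscle RNA was abundant too, with 32 muscle fibre genes such as Acta1 and Myh4 summing to 14309 to 26457 CPM in labelled knockout and 7464 to 20212 CPM in the control. A muscle score, the mean log2 CPM of these genes, was 8.69 ± 0.43 in labelled knockout and 7.98 ± 0.56 in the control (SD, n = 4 each), a difference of 0.71 log2 units (exact permutation test, two-sided, p = 0.0857), where 0.0286 is the smallest p that 4 against 4 can give. By library it was 8.86, 8.94, 8.93 and 8.05 in labelled knockout 1 to 4, against 7.22, 8.57, 8.01 and 8.12 in control 1 to 4. Control 1 thus stood lowest, and labelled knockout 4 lay among the controls. Myl1, whose promoter drives the Cre and which is not among the 32, stood at 367 ± 105 CPM in labelled knockout and 378 ± 68.8 CPM in the control (log2 fold change -0.045 ± 0.20, SE, edgeR adjusted p = 0.940), with overlapping groups. In whole tissue, fewer cells of a type and less RNA per cell cannot be told apart.

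Of the 9 factors, 6 had enough reads to be tested (filterByExpr), and Myf5, Pax7 and Pax3 had not. All 6 tested factors had more RNA in labelled knockout than in control brown fat, by log2 fold changes of 0.48 to 1.00 with a median of 0.82, while over all 13756 genes tested 50.3% lay above 0 and the median was 0.0016. The direction held whichever library was left out, and turned for Mef2c and Eya1 when the muscle score was added to the fit. In edgeR's quasi-likelihood test 0 of the 6 passed an adjusted p of 0.05 (Benjamini-Hochberg over all genes tested), a threshold that 0.385% of all genes passed. At an unadjusted p under 0.05, 5 of the 6 were higher, as were 8.05% of all genes, with 7.12% lower. DESeq2 called 2, Myf6 and Tbx15, as higher, where it called 1.61% of all genes higher, and limma-voom called 0. With no filter on low counts edgeR called these 2 as well, among 0.767% of genes.

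**Figure D1:**
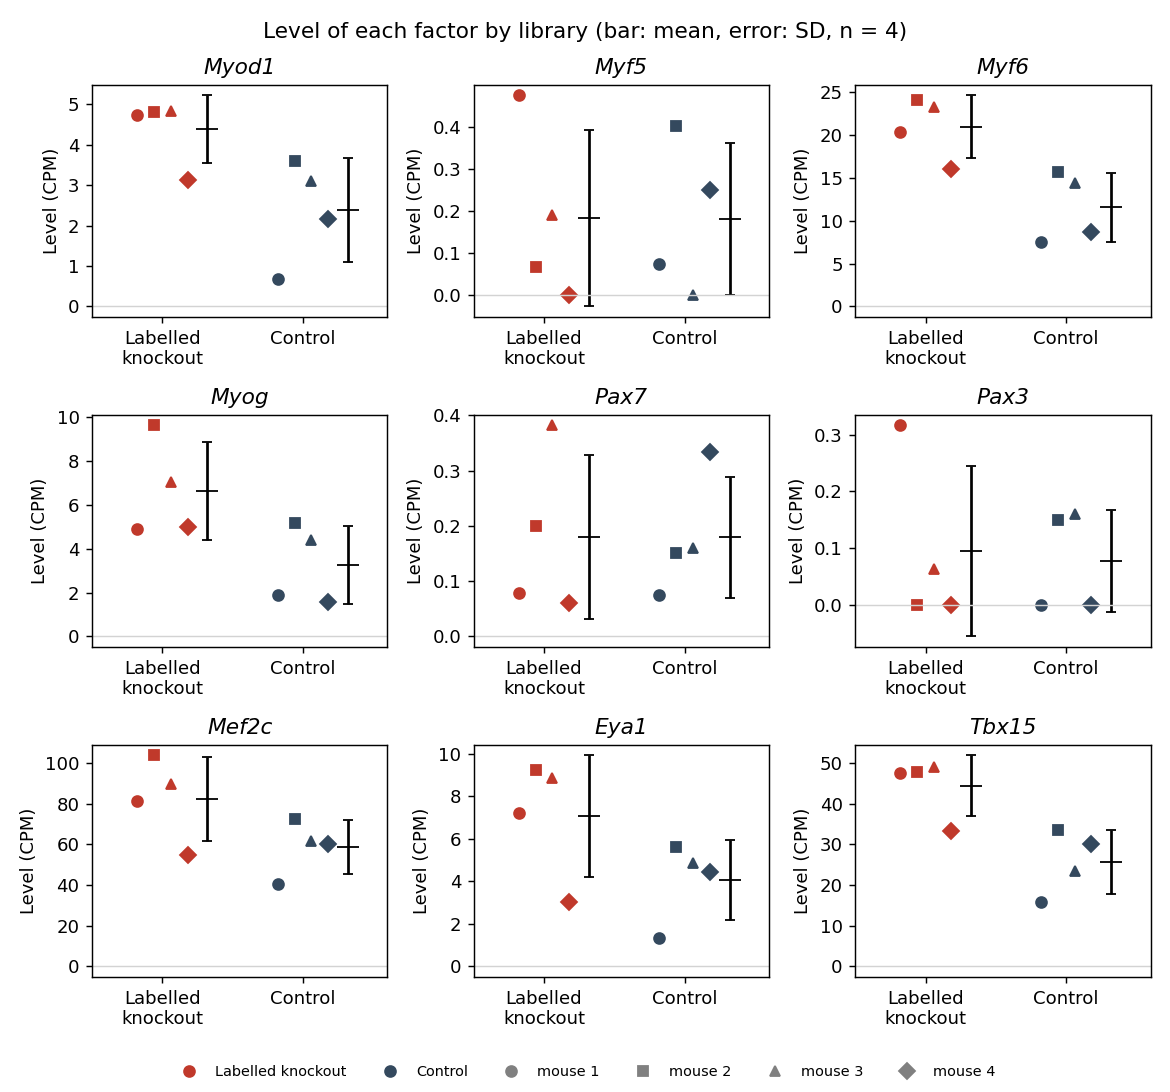
Level in CPM of each of the 9 factors in the 4 labelled knockout and the 4 control libraries (points, with the mouse number as the symbol), with the mean and SD beside them. The 4 labelled knockout points for Myf6 lie above all control points, those for the other tested factors overlap, and Myf5, Pax7 and Pax3 stay under 0.5 CPM.

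Among the bHLH factors, Myf6 (ENSMUSG00000035923, GRCm38 chromosome 10, 107492853 to 107494737, minus strand), the factor that mature fibres keep expressing, was the most abundant. Its level was 20.4, 24.1, 23.3 and 15.99 CPM in labelled knockout 1 to 4, against 7.56, 15.6, 14.4 and 8.68 CPM in control 1 to 4. The groups did not overlap, though labelled knockout 4 stood just above control 2, and in 4.1% of all tested genes labelled knockout lay above the control without overlap. The log2 fold change was 0.84 ± 0.23 (SE) with an edgeR adjusted p of 0.147. The DESeq2 adjusted p was 0.0214, and over all 19 alternative settings it ran from this value to 0.567.

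Myog (chromosome 1, 134289989 to 134292548, plus strand), which switches on terminal differentiation and is raised in denervated muscle, stood at 4.90, 9.64, 7.06 and 4.99 CPM in labelled knockout 1 to 4. In control 1 to 4 it stood at 1.87, 5.16, 4.38 and 1.58 CPM. Labelled knockout 1 and 4 lay within the control range, below control 2. Its fold change was the highest of the 6 on the log2 scale, 1.00 ± 0.37 (SE), with an edgeR adjusted p of 0.248.

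Myod1 (chromosome 7, 46376474 to 46379099, plus strand), the factor that commits myoblasts, was at 4.74, 4.82, 4.84 and 3.13 CPM in labelled knockout 1 to 4, against 0.674, 3.61, 3.11 and 2.17 CPM in control 1 to 4. Labelled knockout 4 lay within the control range, above 3 of the 4 controls, and control 1, with 9 reads, was the lowest of the 8 libraries. The log2 fold change of 0.85 ± 0.38 (SE) had an edgeR adjusted p of 0.318, and it was 0.54 without control 1.

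Myf5 (chromosome 10, 107482908 to 107486134, minus strand), the earliest factor of the family, lies 6718 bases from Myf6 and was barely detected. It had 6, 1, 3 and 0 reads in labelled knockout 1 to 4 and 1, 8, 0 and 3 reads in control 1 to 4. The 10 reads of labelled knockout against 12 of the control gave a ratio of 0.804 relative to TMM-scaled library sizes (95% interval 0.311 to 2.03, counting error only). Per kilobase of exon, Myf5 averaged 0.0878 RPKM in labelled knockout and 0.0871 RPKM in the control, where its neighbour Myf6 averaged 16.6 and 9.16 RPKM in these groups.

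The precursor factors were at the same low level. Pax7 (chromosome 4, 139737062 to 139833528, minus strand) had 1, 3, 6 and 1 reads in labelled knockout 1 to 4, against 1, 3, 2 and 4 reads in control 1 to 4. Pax3 (chromosome 1, 78101267 to 78197134, minus strand) had 4, 0, 1 and 0 reads in labelled knockout 1 to 4, against 0, 3, 2 and 0 reads in control 1 to 4. Groups overlapped for both. The ratio of labelled knockout to control was 1.06 for Pax7 (95% interval 0.409 to 2.79) and 0.965 for Pax3 (0.222 to 4.19), counting error only. Both intervals include a difference of 2 times either way, so such a difference is not excluded at this depth.

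Mef2c (chromosome 13, 83504034 to 83667080, plus strand), which partners the bHLH factors in muscle and is also used by endothelial and immune cells, had the most counts of the 9. It stood at 81.4, 104, 89.5 and 54.8 CPM in labelled knockout 1 to 4, against 40.7, 72.5, 61.8 and 60.4 CPM in control 1 to 4. Labelled knockout 4 lay below 3 of the 4 controls. The log2 fold change was the lowest of the 6, 0.48 ± 0.20 (SE), with an edgeR adjusted p of 0.292. Endothelial markers, 10 in all, had a median of 0.051 on the log2 fold change scale, 0 called by edgeR, DESeq2 or limma-voom and 0 at an unadjusted p under 0.05. They summed to 1102 to 1241 CPM in labelled knockout and 928 to 1499 CPM in the control. Macrophage markers had a median of 0.39 over 10 genes and summed to 102 to 177 CPM in labelled knockout and 97.6 to 139 CPM in the control. All 10 lay above 0, 2 were higher at an unadjusted p under 0.05, and 0 passed in edgeR or limma-voom. Of all genes, 8.05% were higher at that unadjusted threshold, and DESeq2 called 1.61% higher. DESeq2 called 1, Cd68 (adjusted p = 0.0306, edgeR 0.160), at 9.18 ± 2.71 CPM in labelled knockout and 4.81 ± 1.56 CPM in the control. The part of either cell type in the Mef2c value was not tested.

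Eya1 (chromosome 1, 14168954 to 14310235, minus strand) was at 7.19, 9.23, 8.85 and 3.01 CPM in labelled knockout 1 to 4. Control 1 to 4 had 1.35, 5.61, 4.86 and 4.42 CPM. Labelled knockout 4 lay below 3 controls here too. The log2 fold change of 0.78 ± 0.41 (SE) was the least precise of the 6, with an edgeR adjusted p of 0.386, and it was 0.50 without control 1.

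Tbx15 (chromosome 3, 99240381 to 99354259, plus strand) was at 47.6, 47.6, 49.1 and 33.2 CPM in labelled knockout 1 to 4, against 15.8, 33.4, 23.4 and 29.9 CPM in control 1 to 4. Labelled knockout 4 and control 2 stood together at the border of the groups, and the other 3 labelled knockout libraries lay above all controls. Its log2 fold change was 0.79 ± 0.21 (SE). It had an adjusted p of 0.140 in edgeR and 0.0183 in DESeq2, and of 0.0183 to 0.470 over the 19 alternatives.

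Levels between genes were compared per kilobase of exon (RPKM, with the union of all annotated exons as the length). In order of the mean over all libraries they ran Myf6, Tbx15, Mef2c, Myog, Myod1, Eya1, Myf5, Pax7, Pax3. In labelled knockout the first 6 averaged 16.6, 11.8, 5.24, 4.45, 2.35 and 0.905 RPKM, against 9.16, 6.84, 3.74, 2.17, 1.28 and 0.520 RPKM in the control. Myf6 exceeded Tbx15, and Myog exceeded Myod1, in 7 of the 8 libraries, so neither pair kept its order throughout, nor did Myf5 and Pax7 (5 of 8) or Pax7 and Pax3 (7 of 8). The remaining neighbours kept their order in all 8. The annotated exons of Mef2c span 15.7 kb over many isoforms, which lowers its RPKM.

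Across the 8 libraries the tested factors were high and low in much the same libraries as the muscle score. Control 1, with the lowest score, was the lowest library for 5 of the 6 factors, Myog being the exception with control 4 lowest. Labelled knockout 4, with the lowest score of its group, was the lowest of that group for 5 of the 6, again other than Myog, whose lowest was labelled knockout 1. In an edgeR fit with genotype and muscle score together, the slope on the score passed an adjusted p of 0.05 for 3 of the 6 factors, where positive slopes passed in 2.44% of all genes. Eya1 had a slope of 1.59 ± 0.24 (log2 CPM per unit of score, SE) with an adjusted p of 0.00425, Tbx15 0.74 ± 0.11 with 0.00309 and Mef2c 0.72 ± 0.11 with 0.00356. The slopes of Myod1 (1.19 ± 0.31, adjusted p = 0.0779), Myf6 (0.67 ± 0.18, adjusted p = 0.0867) and Myog (0.86 ± 0.35, adjusted p = 0.278) did not pass. Myf6 passed without control 3 or control 4, and Myod1 without control 3, where its slope was 1.24. Without control 1 the slopes of Eya1, Tbx15 and Mef2c were 1.42, 0.64 and 0.78 with adjusted p of 0.0764, 0.0892 and 0.0537, that of Myod1 was 0.72, and none of these 4 passed. Without labelled knockout 4 those of Eya1 (adjusted p = 0.0740) and Mef2c (0.0717) did not pass either.

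**Figure D2:**
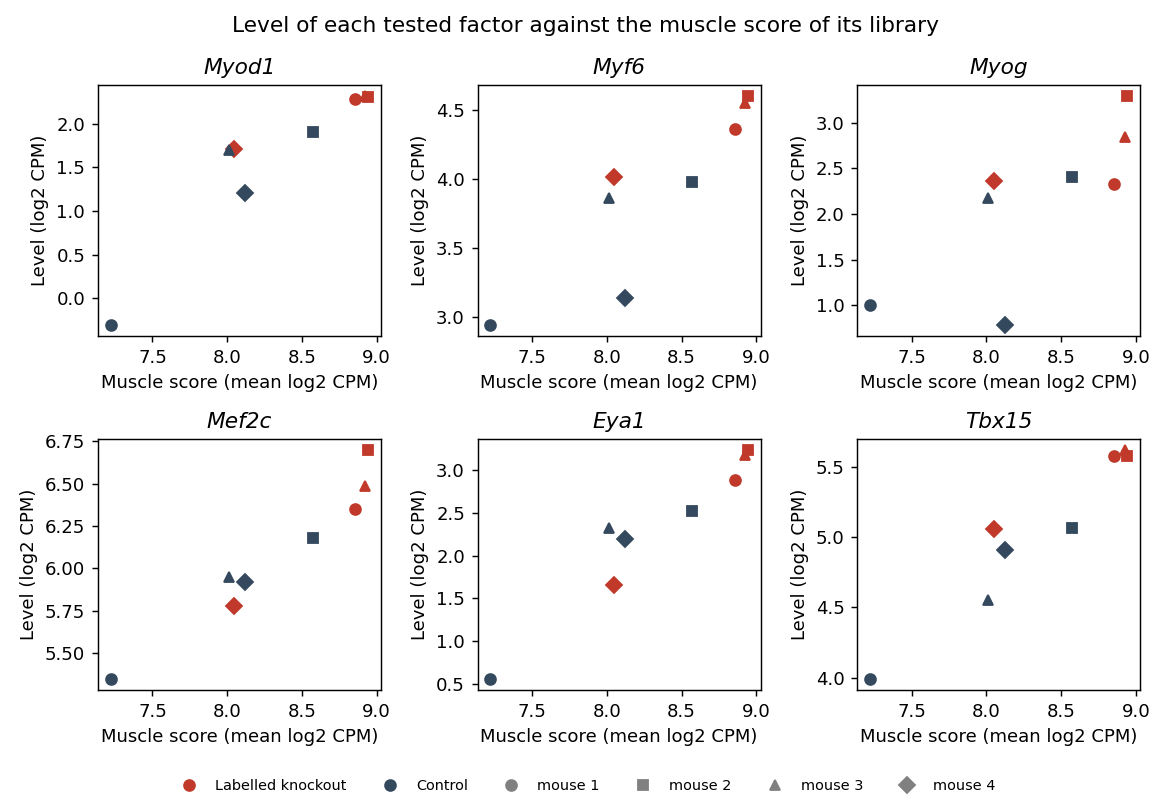
Level of each of the 6 tested factors (log2 CPM) against the muscle score of the same library (mean log2 CPM of 32 muscle fibre genes), labelled knockout and control in different colours. Control 1, at a score of 7.22, is lowest for all but Myog, and labelled knockout 4, at 8.05, sits near control 3 and control 4 on both axes for Mef2c and near control 3 for Myod1.

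With the score in the fit, the genotype difference of the factors was smaller or turned. The log2 fold change was 0.14 ± 0.31 for Myod1, 0.40 ± 0.19 for Myf6, 0.45 ± 0.37 for Myog, -0.028 ± 0.12 for Mef2c, -0.28 ± 0.25 for Eya1 and 0.30 ± 0.11 for Tbx15 (SE each). In that fit 0 of the 6 passed in edgeR, the tool used for it (adjusted p from 0.470 to 0.960), and 0.182% of all genes did. At an unadjusted p under 0.05 Tbx15 alone of the 6 was left, at 0.0231, where 1273 of all 13756 genes lay under 0.05 in that fit. Muscle left on the depot at dissection and muscle genes that change with the genotype would both move the score, and this fit cannot tell them apart.

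**Figure D3:**
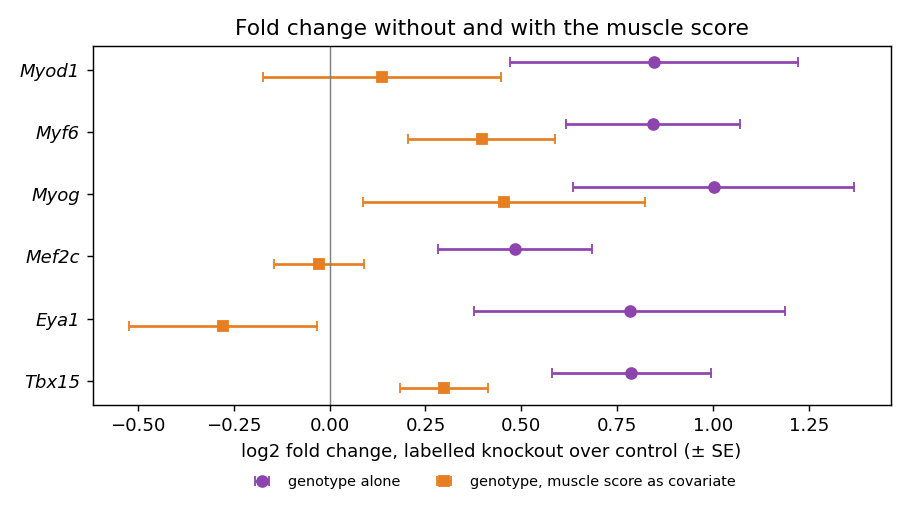
Log2 fold change of labelled knockout over control with its SE for the 6 tested factors, from the fit on genotype alone (circles) and from that with the score added (squares). In the second fit Mef2c (-0.028) and Eya1 (-0.28) lie below 0, and the largest remaining value is that of Myog (0.45).

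Libraries at a like score can be set side by side without a model. Labelled knockout 4 (score 8.05) had 3.13 CPM of Myod1, against 3.11 in control 3 (8.01) and 2.17 in control 4 (8.12). Its Mef2c level of 54.8 CPM stood below 61.8 and 60.4 CPM in these controls, and its Eya1 level of 3.01 CPM below 4.86 and 4.42 CPM. Its Myf6 level of 15.99 CPM stood above 14.4 and 8.68 CPM, its Myog level of 4.99 CPM above 4.38 and 1.58 CPM, and its Tbx15 level of 33.2 CPM above 23.4 and 29.9 CPM. These are single libraries with no test. Set relative to the score in each library, the groups overlapped for all 9 factors, Myf6 included, with log2 CPM minus score from -4.50 to -4.04 in labelled knockout and from -4.98 to -4.15 in the control.

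Genes that work with these factors, or hold them back, were counted from a list. Of 45 listed partners, relatives and inhibitors, 42 were tested, and in edgeR 0 passed (7 higher and 2 lower at an unadjusted p under 0.05, DESeq2 1, limma-voom 0), with 29 above 0 and 13 below and a median of 0.10 for the log2 fold change. Over all genes, 8.05% were higher and 7.12% lower at that unadjusted threshold, and DESeq2 called 1.61% higher. The most abundant were Mef2d, a sister of Mef2c, at 159 ± 16.4 CPM in labelled knockout and 160 ± 3.38 CPM in the control (log2 fold change -0.0060), Nfix, Mef2a and Id1. On the log2 scale the fold change was -0.00034 for Nfix, a fibre-type regulator, 0.18 for Mef2a and 0.034 for Id1, whose product blocks bHLH factors from pairing, with edgeR adjusted p from 0.409 to 0.999 for these genes. Vgll2, a muscle co-factor, was the 1 called in DESeq2 (adjusted p = 0.0440, edgeR 0.168), at 14.1 ± 3.88 CPM in labelled knockout and 7.95 ± 2.00 CPM in control brown fat.

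Genes known to be activated by the bHLH factors in muscle cells were counted next. Of 24 listed 20 were tested, 17 of them above 0 and the median at 0.55 (log2 fold change), and in edgeR 0 passed (10 higher and 1 lower at an unadjusted p under 0.05, DESeq2 1, limma-voom 0). Among all genes, the unadjusted shares were 8.05% higher and 7.12% lower, and DESeq2 called 1.61% higher. Cdkn1a, a cell cycle inhibitor that many other tissues express, was the most abundant, with a log2 fold change of 0.0043. Jsrp1, a protein of the calcium release unit, was at 0.69 ± 0.25 (SE), Cdkn1c at 0.36 and Stac3 at 0.53, with edgeR adjusted p from 0.233 to 0.274 for these 3. Cav3, the caveolin of muscle, was the 1 called in DESeq2 (adjusted p = 0.0306, edgeR 0.171), at 10.9 ± 3.18 CPM in labelled knockout and 5.002 ± 2.35 CPM in the control. Against the direction of the list stood the developmental myosin Myh3 and the fetal actin Actc1, with log2 fold changes of -1.31 ± 0.71 and -1.38 ± 0.45 (SE) and edgeR adjusted p of 0.408 and 0.205. These and Myl4, at -0.21, were the 3 below 0, named for their direction once it was known. Mymk, needed for myoblast fusion, had 14 reads in all and Mymx had 0. The median of the 20 targets was 0.042 once the muscle score was in the fit.

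Genes of the neuromuscular junction and of denervation, a state in which Myog rises, formed another list, which summed to 271 to 729 CPM in labelled knockout and 116 to 470 CPM in the control. All 9 tested of 11 listed lay above 0, and their median was 0.79 (log2 fold change), or 0.036 with the muscle score in the fit. In edgeR 0 passed (4 higher at an unadjusted p under 0.05, DESeq2 1, limma-voom 0). Of all genes, 8.05% were higher at the unadjusted threshold and 1.61% were called higher in DESeq2. Gadd45a was the 1 called in DESeq2 (adjusted p = 0.0419, edgeR 0.160). It and Runx1 were the 2 higher without overlap, as were 4.1% of all tested genes. Their log2 fold changes were 0.83 and 0.77, and 0.96 and 0.76 with the muscle score in the fit. There their slopes on the score were -0.22 and 0.024, where the median slope of the list was 1.03. Which cells carried these 2 genes was not tested. In that fit 6 of the 9 lay above 0, and edgeR called 0. The ubiquitin ligase genes Fbxo32 and Trim63, which rise in wasting muscle, were the most abundant, with log2 fold changes of 0.96 and 1.23 and edgeR adjusted p of 0.275 and 0.333. Muscle fibre genes themselves had a median of 0.68, with all 32 above 0 and 0 passing in edgeR or limma-voom. At an unadjusted p under 0.05, 21 were higher (8.05% of all genes), and 2 were called in DESeq2 (1.61% of all genes higher). The 2 were Tnni2 (DESeq2 adjusted p = 0.00693, edgeR 0.128) and Tnnt3 (DESeq2 0.0428, edgeR 0.192), both with overlapping groups.

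**Figure D4:**
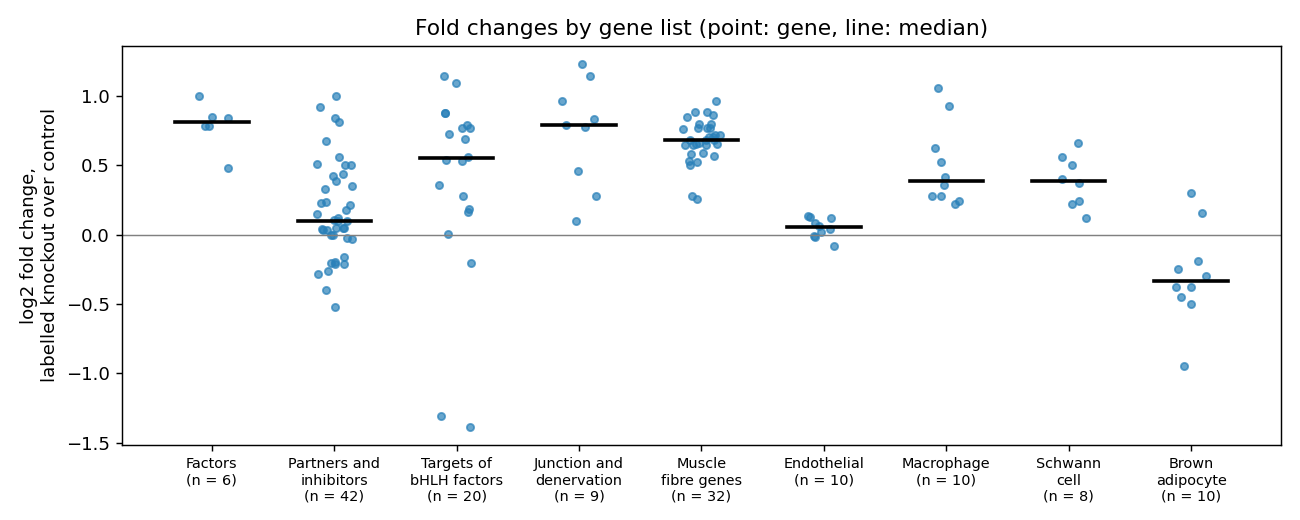
Log2 fold change of labelled knockout over control for each tested gene (points) of the factors and of 8 gene lists, with the list median (line). The medians are 0.82 for the factors, 0.10 for partners and inhibitors, 0.55 for bHLH targets, 0.79 for junction and denervation genes, 0.68 for muscle fibre genes, 0.051 for endothelial, 0.39 for macrophage, 0.39 for Schwann cell and -0.34 for brown adipocyte markers.

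Markers of satellite cells, where Pax7 belongs, summed to 691 to 1086 CPM in labelled knockout and 491 to 860 CPM in the control, most of it from Des. Des followed the muscle score, with a slope of 0.86 (edgeR adjusted p = 0.00072), so the sum does not measure satellite cells alone. Of 10 listed, 6 were tested, 4 above 0 and 2 below, and Vcam1 rose, at 15.4 ± 2.48 CPM in labelled knockout and 6.91 ± 1.79 CPM in the control (log2 fold change 1.14 ± 0.19, SE, edgeR adjusted p = 0.0303). The call was lost without labelled knockout 1, 2 or 3 or control 2 or 3, with adjusted p up to 0.116. Vcam1 is an adhesion molecule that vessels, stromal cells and macrophages also carry. Cdh15, the M-cadherin of satellite cells and myoblasts, was at 3.45 ± 1.33 CPM in labelled knockout and 1.88 ± 0.836 CPM in the control (log2 fold change 0.88 ± 0.39, SE, edgeR adjusted p = 0.313), with overlapping groups. Itga7 and Heyl lay below 0, with log2 fold changes of -0.11 and -0.21 and edgeR adjusted p of 0.760 and 0.334. Calcr, with 14 reads over the 8 libraries, Megf10 with 28, Chodl with 51 and Fgfr4 with 58 were not tested. Fgfr4 averaged 0.820 CPM in labelled knockout and 0.185 CPM in the control, and Calcr 0.182 and 0.0604 CPM. For Megf10 the means were 0.275 and 0.193 CPM, and for Chodl 0.457 and 0.424 CPM. Groups overlapped for all of them. Des and Sdc4, the 2 most abundant, had log2 fold changes of 0.70 and 0.25 with edgeR adjusted p of 0.212 and 0.263. Pax3 also marks melanocyte and Schwann cell precursors. Melanocyte markers summed to at most 0.721 CPM in labelled knockout and 1.10 CPM in the control, and Tyr and Slc45a2 had 0 reads in every library. Schwann cell markers summed to 221 to 264 CPM in labelled knockout and 172 to 211 CPM in the control, all 8 above 0 and the median at 0.39 (log2 fold change). Pmp22, a myelin gene of many tissues, was the 1 that passed in edgeR (log2 fold change 0.50, adjusted p = 0.0416), and it missed the threshold whichever library was left out (0.0596 to 0.148). With all libraries, 0.385% of all genes passed in edgeR. Smooth and heart muscle markers summed to 63.3 to 152 CPM in labelled knockout and 69.2 to 84.6 CPM in the control, with Myl7 at 0 reads and Nppa at 2. Progenitor and fibroblast markers summed to 452 to 503 CPM in labelled knockout and 376 to 481 CPM in the control. Of 10, 6 lay above 0 and 4 below, the median was 0.045 (log2 fold change), and 0 passed in edgeR or limma-voom. Lum was the 1 called in DESeq2 (adjusted p = 0.0339, edgeR 0.124), where 1.61% of all genes were called higher. It and Dcn were the 2 higher without overlap, as were 4.1% of all tested genes. Their log2 fold changes were 0.51 and 0.27, with an edgeR adjusted p of 0.233 for Dcn.

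Likeness between genes was described by the mean absolute difference of log2 CPM over the 8 libraries, each gene centred on its own mean. The genes nearest to Myf6 were Myl10, Hsp25-ps1 and Sgca, at 0.120, 0.124 and 0.130 log2 units, where the median over all genes was 0.502. Myl10 and Hsp25-ps1 averaged only 0.648 and 0.633 CPM, a level at which the prior count of 2 draws log2 values together. Nearest to Tbx15 were Tcea3, Ppp1r3a and Prkcq (0.0680 to 0.0846), and nearest to Eya1 were 2310002L09Rik, Myadml2 and Abcb4 (0.0803 to 0.143). For Myod1 they were Popdc3, Cand2 and Slc38a4 (0.119 to 0.157). Mef2c was nearest to Map3k14, Cpe and Casz1 (0.0708 to 0.0764). Nearest to Myog were Tnfrsf12a, B3galt1 and Ppp1r15a (0.156 to 0.180). Between the factors, Myf6 and Tbx15 were closest, at 0.190, and Myog and Eya1 farthest, at 0.442. These distances describe 8 libraries of 1 tissue and carry no test.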

How the data were processed

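Kit-purified RNA was turned into stranded, dual-indexed mRNA libraries, per the labels' protocols. The submitters' processing notes list featureCounts (Subread), HISAT2, SAMtools, Trimmomatic and FastQC, and build GRCm38. Tool versions, the strand option of the counting and its annotation were not given in the sources used here. What the authors deposited are read counts per gene, in whole numbers and not normalized. Columns were matched to samples by genotype and mouse number. The labels call the samples separate mice.

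CPM used TMM-scaled library sizes. Genes passing filterByExpr (13756 of 54532) were tested with edgeR 4.0.16 (limma 3.58.1, R 4.3.3) on genotype, with a threshold of 0.05 on Benjamini-Hochberg adjusted p. An SE is |log2 fold change| divided by √F. DESeq2 1.42.0 and limma-voom were alternatives. Positions and exon lengths came from GENCODE mouse release 21 (99.93% of IDs matched), in which no exon of the 9 factors overlaps another gene. The log2 CPM behind scores has a prior count of 2. Slopes per library left out, and the fit without the muscle fibre genes, were added after the data were seen.

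The 9 factors and the gene lists were chosen with earlier results of these data known. All 9 are named. Partners and targets are named where past the threshold or among the 4 most abundant, other lists by sums, counts and up to 2 abundant genes. Further genes were named with their values known. They were all satellite cell markers, listed genes called in edgeR, DESeq2 or limma-voom, targets below 0, and some with few or 0 reads. Runx1 and Dcn were named because their groups did not overlap. Same-numbered mice had deviations correlated at 0.024 to 0.40, so the numbers were not taken as pairs. All 28 library pairs differed beyond sampling noise (chi-square 11.2 to 86.8 per degree of freedom).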

Additional observations from a re-analysis of the deposited data

Results flagged for a closer look

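In the labelled knockout group, 2 factors had a library far from the other 3. Myod1 was at 3.13 CPM in labelled knockout 4, against 4.74 to 4.84 CPM in the other libraries of its group, a Dixon ratio of 0.944 where 0.829 is the critical value for 4 samples. Tbx15 was at 33.2 CPM in labelled knockout 4, against 47.6 to 49.1 CPM in the others, with a ratio of 0.905. The same library had the lowest muscle score of its group, 8.05. Chance alone flags about 1 in 20 groups, and 12 groups were tested (6 factors in 2 groups).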

How the results depend on the processing

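The fold changes of the 6 tested factors stayed above 0 in all 19 alternatives except the muscle score as a covariate, where Mef2c was at -0.028 and Eya1 at -0.28. Myf6 passed in DESeq2 (0.85), with no filter on low counts (0.84) and with the mouse number as a replicate block (0.89, adjusted p = 0.0278). Tbx15 passed in DESeq2 (0.79) and with no filter (0.79), and Myog with the replicate block (1.10, adjusted p = 0.0428). Why these calls differ was not tested. The mouse numbers were not found to pair the samples, and the other factors passed in no alternative. Leaving out 1 library gave log2 fold changes of 0.54 to 1.14 for Myod1, 0.69 to 1.03 for Myf6, 0.77 to 1.34 for Myog, 0.34 to 0.64 for Mef2c, 0.50 to 1.04 for Eya1 and 0.61 to 0.94 for Tbx15. The count of all genes past the threshold was 53, and became 384 in DESeq2, 187 with no filter, 155 with the replicate block, 25 with the muscle score as a covariate and 24 to 75 with 1 library left out. The muscle score difference of 0.71 ran from 0.46 without control 1 to 0.93 without labelled knockout 4, and its permutation test passed in no alternative, though with the replicate block (p = 0.25 from sign flips of 4 pairs) it could not, 0.125 being the smallest p. Without the muscle fibre genes in the table the count was 53 again. Myf5, Pax7 and Pax3, entered with no filter, had log2 fold changes of -0.14, 0.047 and 0.083 with adjusted p from 0.976 to 0.999. Their 10 to 22 reads over 8 libraries limit what can be said of them.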
